A study of Mus musculus with 2 samples.

Results

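*Pi16*, *Dpp4*, *Cd34*, *Ly6a*, *Ly6c1*, *Cd55*, *Gfpt2*, *Dpt*, *Clec3b* and *Dlk1* are 10 genes taken here as markers of adventitial progenitor fibroblasts. They were named out of 31054 features in the single-cell RNA-seq matrices, with earlier results of these data known. Their unique molecular identifier (UMI) counts were followed in cells of the rib repair callus at 4 dpi, in 1 control and 1 *Smo* cKO library. All values rest on cells with at least 200 detected genes and under 10% of UMIs on mitochondrial genes, 10057 control and 9507 *Smo* cKO cells. Connective cells, with *Col1a1*, *Col1a2* and *Col3a1* together at 1% of UMIs or more and no UMI of the leukocyte gene *Ptprc*, numbered 6398 in control and 5115 in *Smo* cKO.

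All animals carried *Sox9*:CreER, the *R26*:tdTomato reporter and at least 1 floxed *Smo* allele. The control genotype was *Smo* flox/+ and the *Smo* cKO genotype *Smo* flox/flox. All received 3 tamoxifen injections, from 7 to 5 days before a large-scale rib resection, and the study used adult mice of 8 to 12 weeks. Calluses of 3 animals were pooled for each genotype, which leaves 1 library per genotype, no replicate and no test of a difference. CreER is active only in cells that express *Sox9*, so deletion is limited to cells of that lineage. *Smo* itself, the Hedgehog signal transducer, was at 19.3 CPM (UMIs per 1000000 UMIs of the cells summed) in control and 12.8 CPM in *Smo* cKO connective cells (log2 ratio −0.59). The reporter was detected in 49 and 110 connective cells.

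Adventitial fibroblasts form a sheath around larger vessels and line fascia and the outer layers of many organs. In mouse, cells with *Pi16* and *Dpp4* are widely described as a progenitor-like state from which more specialized, tissue-resident (parenchymal) fibroblasts can arise. *Ly6a* (Sca-1) and *Cd34* are used to isolate them, and the same proteins occur on endothelial and hematopoietic progenitor cells.

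The libraries held 105367110 and 112700220 UMIs, with medians of 10845 UMIs per control and 13376 per *Smo* cKO connective cell. The mesenchymal genes *Prrx1* and *Pdgfra* were detected in 82.8% and 63.1% of control and 84.9% and 58.4% of *Smo* cKO connective cells, against 1.49% and 1.78% for the endothelial gene *Pecam1* and 5.89% and 8.43% for the macrophage gene *Cd68*. The collagen limit cuts a range: 369 control and 512 *Smo* cKO cells without *Ptprc* lay between 0.8% and 1.25%. Of the barcodes, 613 occurred in both libraries, 458 of them in control and 429 in *Smo* cKO connective cells. A log2 ratio is the *Smo* cKO over the control CPM, and every 95% interval covers counting error only, not variation between animals.

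In connective cells the members did not move together (plot of the levels of the 10 genes). *Pi16* and *Clec3b* were more than 2-fold lower in the *Smo* cKO library, *Ly6a* and *Dlk1* more than 2-fold higher, and *Cd34*, *Gfpt2*, *Dpt* and *Ly6c1* differed by less. Of the 10 log2 ratios 5 were below and 5 above 0, with a median of 0.03, as for all 7291 genes that reached 10 CPM in at least 1 library (0.03). *Cd55* and *Dpp4* did not reach 10 CPM, and *Pi16* reached it only in the control library. At least 2-fold lower were 2 of the 8 members that passed, against 0.261% of all genes, and at least 2-fold higher were 2 of 8, against 0.919%. *Pi16* had the 12th and *Clec3b* the 14th lowest ratio of the 7291 genes, and *Dlk1* the 36th and *Ly6a* the 58th highest. Since the members were chosen with earlier results of these data known, these shares and ranks are a description only. The 2-fold calls depended on which cells were kept. With the study's upper limit of 2000 detected genes, which left 1564 control and 889 *Smo* cKO connective cells, none of the members was 2-fold apart.

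**Figure D1:**
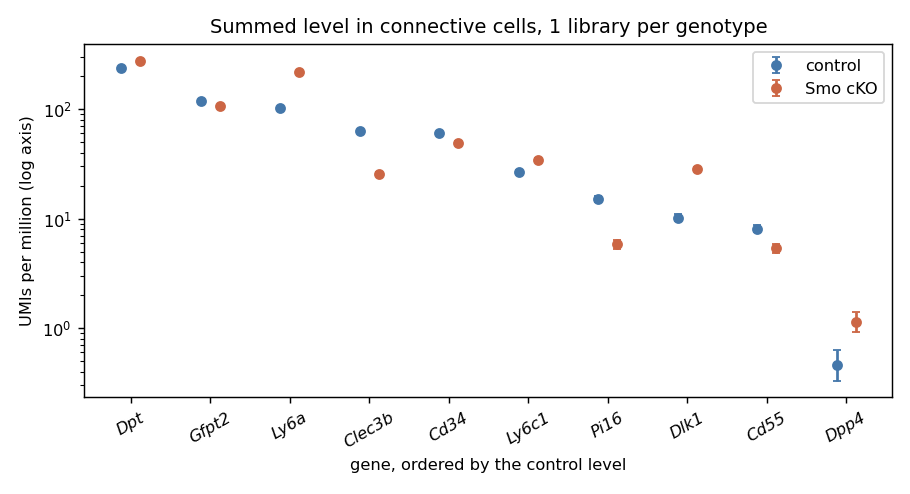
CPM (log axis) of the 10 genes in connective cells, summed over 6398 control and 5115 *Smo* cKO cells, with exact 95% Poisson intervals that cover counting error only. *Pi16* and *Clec3b* lie lower and *Ly6a* and *Dlk1* higher in the *Smo* cKO library, while *Dpp4* is at 0.464 and 1.15 CPM.

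A UMI tags a molecule rather than a length of transcript, so CPM was ordered between genes without a length correction. Differences between genes in capture or in read assignment, as for *Ly6c1* and *Ly6c2* below, were not corrected. In the control library *Dpt* stood highest at 239 CPM, followed by *Gfpt2* (119 CPM), *Ly6a* (102 CPM), *Clec3b* (62.9 CPM), *Cd34* (60.5 CPM), *Ly6c1* (26.7 CPM), *Pi16* (15.1 CPM), *Dlk1* (10.2 CPM), *Cd55* (8.11 CPM) and *Dpp4* (0.464 CPM). Only *Clec3b* and *Cd34* were neighbors with overlapping intervals. In the *Smo* cKO library *Ly6a* stood second to *Dpt*, and *Clec3b* was below *Cd34*, *Ly6c1* and *Dlk1*, with *Pi16* and *Cd55* overlapping.

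*Pi16* encodes peptidase inhibitor 16, a membrane-anchored protein, and is the gene most often used to name adventitial fibroblasts. It had 1240 UMIs in control and 454 in *Smo* cKO connective cells, or 15.1 CPM (interval 14.3 to 16.0) and 5.86 CPM (5.33 to 6.42). The log2 ratio was −1.37 (−1.53 to −1.21). At least 1 UMI was found in 9.77% of control and 4.50% of *Smo* cKO connective cells, and the cells that had it held similar numbers, 1.98 and 1.97 UMIs on average. With every cell thinned to 2000 UMIs, *Pi16* was detected in 3.59% and 1.78% of connective cells against 0.828% and 0.543% of hematopoietic cells. Connective cells held 92.4% and 83.2% of its UMIs in the 2 libraries. Over all genes, these cells accounted for 81956657 of 104189394 UMIs among kept control cells, and for 77532144 of 110863278 in *Smo* cKO. This base was lower in *Smo* cKO, and the connective shares of *Pi16* and of the genes below were not corrected for it.

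The size of the *Pi16* difference varied with the number of genes detected per cell. Among cells with over 2000 genes *Pi16* was at 9.94 and 3.91 CPM (log2 ratio −1.35). Among cells with at most 2000 genes it was far higher in both, at 75.4 and 53.7 CPM (log2 ratio −0.49, interval −0.75 to −0.23). These smaller cells had median depths of 4664.5 and 3261 UMIs. Whether depth or cell state sets this dependence was not tested.

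*Dpp4*, a cell-surface peptidase that trims chemokines and incretins, was barely measured. Connective cells held 38 control and 89 *Smo* cKO UMIs (0.464 and 1.15 CPM, log2 ratio 1.31, interval 0.74 to 1.90). Thinned to 2000 UMIs, it was detected in 9 of 5963 control (0.151%) and 14 of 4845 *Smo* cKO connective cells (0.289%). Hematopoietic cells, 0.473% and 0.543%, are no clean background for *Dpp4*, since 4 of their 6 *Smo* cKO cells with it were among 48 dendritic cells. In macrophages or monocytes it was detected in 2 of 642 control and 0 of 869 *Smo* cKO cells, and in muscle cells in 0 of 250 and 0 of 519. Few cells carry any statement on its level. Only 42.7% of its control UMIs lay in connective cells. It was highest in the few cells with epithelial genes, 15 and 32 cells, at 124 and 40.1 CPM.

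*Cd55*, which protects cells from complement, had 665 and 417 UMIs in connective cells, or 8.11 and 5.38 CPM (log2 ratio −0.59, interval −0.77 to −0.41). *Cd34*, a sialomucin of progenitor and endothelial surfaces, was at 60.5 and 49.3 CPM (log2 ratio −0.29, interval −0.36 to −0.23) and was detected in 42.6% and 39.8% of connective cells. Connective cells held 88.1% and 81.1% of the *Cd34* UMIs. Its level was higher in the 72 and 84 endothelial cells, at 236 and 155 CPM, and in the 15 and 32 cells with epithelial genes, at 226 and 211 CPM. Both genes were thus lower in *Smo* cKO connective cells, by less than 2-fold.

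*Clec3b* encodes tetranectin, a secreted plasminogen-binding lectin. It had 5156 UMIs in control and 1983 in *Smo* cKO connective cells, or 62.9 CPM (interval 61.2 to 64.7) and 25.6 CPM (24.5 to 26.7). The log2 ratio was −1.30 (−1.37 to −1.22). Detection after thinning to 2000 UMIs was 14.3% and 5.59%, against 1.18% and 0.543% in hematopoietic cells. Its highest level lay outside the connective class, at 1271 and 513 CPM in the 15 and 32 cells with epithelial genes, where *Gfpt2* was also high (657 and 539 CPM). With cells of at most 2000 genes the ratio in connective cells was −0.83, and with cells above that limit −1.18.

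*Dpt* encodes dermatopontin, a matrix protein that helps collagen fibrils assemble and a general fibroblast marker. It was the most widely detected member, in 75.7% of control and 80.6% of *Smo* cKO connective cells, at 239 and 277 CPM (log2 ratio 0.21, interval 0.18 to 0.24). *Gfpt2*, which starts the hexosamine pathway that feeds glycan synthesis, was at 119 and 106.5 CPM (log2 ratio −0.16, interval −0.20 to −0.12). Both differed little between the libraries, although *Gfpt2* in cells of at most 2000 genes was at 291 and 162 CPM. In cells with over 2000 genes *Gfpt2* was even, at 104.2 and 104.3 CPM (log2 ratio 0.0003, interval −0.05 to 0.05).

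*Ly6a*, the GPI-anchored surface protein Sca-1, had 8377 UMIs in control and 16827 in *Smo* cKO connective cells, or 102 and 217 CPM (log2 ratio 1.09, interval 1.05 to 1.12). The higher level was not limited to connective cells. *Ly6a* was at 12.7 and 84.1 CPM in macrophages or monocytes, at 16.2 and 53.5 CPM in muscle cells, at 21.2 and 123 CPM in mural cells and at 195 and 328 CPM in endothelial cells (plot of *Ly6a* by cell class). In hematopoietic cells as a whole the log2 ratio was 2.36 (interval 2.05 to 2.69). *Isg15*, an interferon-induced gene, moved alongside it, from 12.7 to 158 CPM in connective cells, 35.6 to 216 CPM in macrophages or monocytes and 3.17 to 215 CPM in mural cells. *Ly6a* is itself known to respond to interferon, and the part of such a response in its ratio was not tested.

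**Figure D2:**
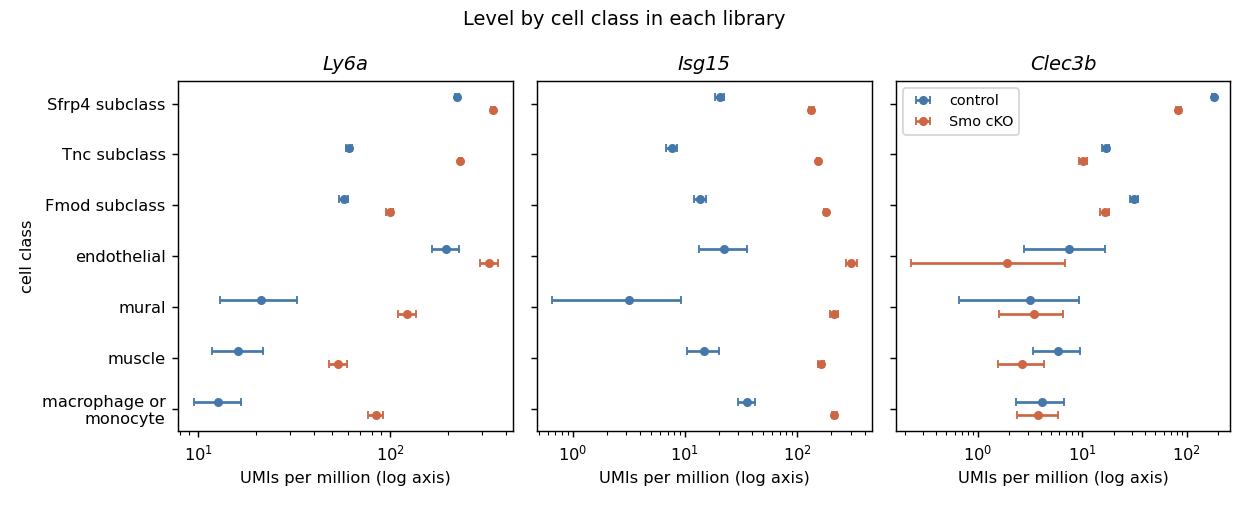
CPM (log axis) of *Ly6a*, *Isg15* and *Clec3b* in 3 connective subclasses and 4 other cell classes of the control and *Smo* cKO libraries, with exact 95% Poisson intervals that cover counting error only. *Ly6a* and *Isg15* lie higher in the *Smo* cKO library in every class drawn, whereas *Clec3b* lies lower in the 3 connective subclasses and is at most 7.49 CPM in the other 4 classes.

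*Ly6c1* is a neighbor of *Ly6a* on chromosome 15 and encodes a related GPI-anchored protein of endothelial cells and fibroblasts, while its near-copy *Ly6c2* marks myeloid cells. The last 400 bases of their transcripts are where a 3′ assay reads (the chemistry was not given in the sources used here). There *Ly6c1* and *Ly6c2* were identical at 96.5% of bases with a shared run of 124, and *Ly6c1* and *Ly6a* at 84.3% with a run of at most 36. Some reads may therefore not tell *Ly6c1* and *Ly6c2* apart, and how such reads were counted was not examined. The upstream regions of these 2 genes differ more, with 52 mismatched and 34 unaligned of the 250 bases below. Some unaligned bases lie at the ends, where the 2 windows are offset, and they are capitals too. The 250 bases before the transcription start are shown because the 2 genes differed in the cells that held their UMIs, with capitals at bases that have no identical partner in a global alignment (RefSeq, GRCm38.p6, *Ly6c1* at chr15:75048838-75049087 and *Ly6c2* at chr15:75111972-75112221, minus strand, 164 of 250 bases identical or 65.6%).
Ly6c1: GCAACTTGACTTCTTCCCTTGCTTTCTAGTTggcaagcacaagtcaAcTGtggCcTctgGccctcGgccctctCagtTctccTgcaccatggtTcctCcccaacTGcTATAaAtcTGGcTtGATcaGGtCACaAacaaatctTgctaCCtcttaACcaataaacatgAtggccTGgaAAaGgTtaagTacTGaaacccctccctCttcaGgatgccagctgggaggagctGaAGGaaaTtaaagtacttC
Ly6c2: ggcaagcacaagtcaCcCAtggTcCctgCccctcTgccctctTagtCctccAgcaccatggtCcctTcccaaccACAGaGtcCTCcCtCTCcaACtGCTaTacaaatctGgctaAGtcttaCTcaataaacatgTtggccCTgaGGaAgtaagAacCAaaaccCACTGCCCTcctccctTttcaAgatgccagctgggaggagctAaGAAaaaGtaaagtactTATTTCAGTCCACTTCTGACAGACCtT

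*Ly6c1* was at 26.7 CPM in control and 34.4 CPM in *Smo* cKO connective cells (log2 ratio 0.37, interval 0.28 to 0.45), and at 120 and 138 CPM in endothelial cells. *Ly6c2* was at 0.891 and 1.08 CPM in connective cells but at 1600.1 and 372 CPM in the 30 and 64 neutrophils. Connective cells held 90.1% and 82.7% of *Ly6c1* UMIs and 10.9% and 7.27% of *Ly6c2* UMIs. The counts of the 2 genes therefore did not follow each other across cell classes, despite their shared 3′ sequence. Alternative cell selections turned the direction of *Ly6c1*, which was at 82.9 and 67.2 CPM (log2 ratio −0.30) in connective cells with at most 2000 genes.

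*Dlk1*, a Delta-like surface protein that restrains adipocyte differentiation, had 838 UMIs in control and 2216 in *Smo* cKO connective cells, or 10.2 CPM (interval 9.54 to 10.9) and 28.6 CPM (27.4 to 29.8). The log2 ratio was 1.48 (1.37 to 1.60). It was detected in 6.39% and 12.3% of connective cells, and after thinning to 2000 UMIs in 2.08% and 3.92%, against 0.355% and 0.634% of hematopoietic cells. In mural cells *Dlk1* was at 20.1 and 23.1 CPM (log2 ratio 0.20, interval −0.57 to 1.03). Below the limit of 2000 genes the connective log2 ratio was 0.35, with an interval (−0.05 to 0.75) that also holds 0.

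Connective cells were divided into 3 subclasses by genes that are not members: *Sfrp4*, *Eln*, *Col14a1* and *Ptx3* (*Sfrp4* subclass), *Tnc*, *Inhba*, *Timp1* and *Loxl2* (*Tnc* subclass), and *Fmod*, *Acan*, *Col11a1*, *Ptn* and *Aspn* (*Fmod* subclass). These held 2299, 2460 and 1394 control and 1253, 2281 and 1470 *Smo* cKO cells. They are ranges of scores, with 8.48% to 18.9% of their cells near a border, and their median depths differed, at 8075, 15594 and 12365.5 UMIs in the control.

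Of the 3 subclasses, the *Sfrp4* subclass had the highest level of every member in both libraries. In the 245 control and 111 *Smo* cKO connective cells outside all 3, *Dlk1* was higher still in the control (23.7 CPM, 5 UMIs), as were *Pi16*, *Cd34*, *Cd55* and *Clec3b* in the *Smo* cKO library, from 3 to 20 UMIs each. *Pi16* was the most restricted. In the control it was at 51.2 CPM in the *Sfrp4*, 2.77 CPM in the *Tnc* and 2.18 CPM in the *Fmod* subclass. In the *Smo* cKO library it was at 25.5, 1.05 and 1.81 CPM in the same order. The *Sfrp4* subclass was 35.9% of control connective cells and held 87.4% of their *Pi16* UMIs, 74.3% of *Clec3b*, 73.7% of *Cd55* and 46.2% of *Dpt*. Over all genes, it had 21184437 and the *Tnc* subclass 40390976 of the 81956657 control connective UMIs. *Clec3b* was at 181, 16.7 and 31.2 CPM in the *Sfrp4*, *Tnc* and *Fmod* subclasses of the control. *Dlk1* was the least concentrated, with 42.4% of its control UMIs in the *Sfrp4* and 43.9% in the *Tnc* subclass.

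Within the *Sfrp4* subclass the ratios split the genes again (plot of the ratios by subclass). Lower in the *Smo* cKO library were *Cd55* (23.1 and 10.2 CPM, log2 ratio −1.18), *Clec3b* (181 and 82.7 CPM, −1.13), *Pi16* (51.2 and 25.5 CPM, −1.01), *Cd34* (126 and 77.9 CPM, −0.70) and *Gfpt2* (250.5 and 174 CPM, −0.52), each with an interval below 0. Higher were *Dlk1* (16.8 and 39.4 CPM, log2 ratio 1.23) and *Ly6a* (223 and 343 CPM, 0.62). *Cxcl12*, which the study followed, was at 323 and 121 CPM in the same cells (log2 ratio −1.41). Here too the differences varied with genes per cell. With at most 2000 genes the log2 ratio was −0.31 for *Cd55* (interval −0.92 to 0.25), −0.17 for *Cd34* (−0.39 to 0.06) and −0.34 for *Clec3b* (−0.52 to −0.17), against −1.28, −0.71 and −1.15 above that limit. In *Sfrp4* subclass cells with over 2000 genes *Pi16* was at 37.1 and 16.4 CPM (log2 ratio −1.18), and in those with at most 2000 genes at 99.0 and 109 CPM (log2 ratio 0.14, interval −0.13 to 0.41).

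In the *Tnc* subclass 8 of the 10 genes were higher in the *Smo* cKO library. Of the 7 that reached 10 CPM there in at least 1 library 6 were higher, against 48% of 7227 genes. *Dlk1*, among the 6, reached 10 CPM only in the *Smo* cKO library. *Ly6a* was at 61.0 and 232.5 CPM (log2 ratio 1.93), *Dlk1* at 9.11 and 33.4 CPM (1.88), *Ly6c1* at 13.1 and 32.3 CPM (1.30) and *Cd55* at 2.20 and 4.70 CPM (1.09), and *Dpp4* had 4 control and 53 *Smo* cKO UMIs. *Pi16* (2.77 and 1.05 CPM, log2 ratio −1.40) and *Clec3b* (16.7 and 10.2 CPM, −0.72) were lower there too. In the *Fmod* subclass *Clec3b* was lower (31.2 and 16.3 CPM, log2 ratio −0.94) and *Dlk1* (5.45 and 11.7 CPM, 1.10), *Ly6a* (0.80) and *Dpt* (0.73) were higher. The interval of *Pi16* held 0, at −0.94 to 0.39.

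**Figure D3:**
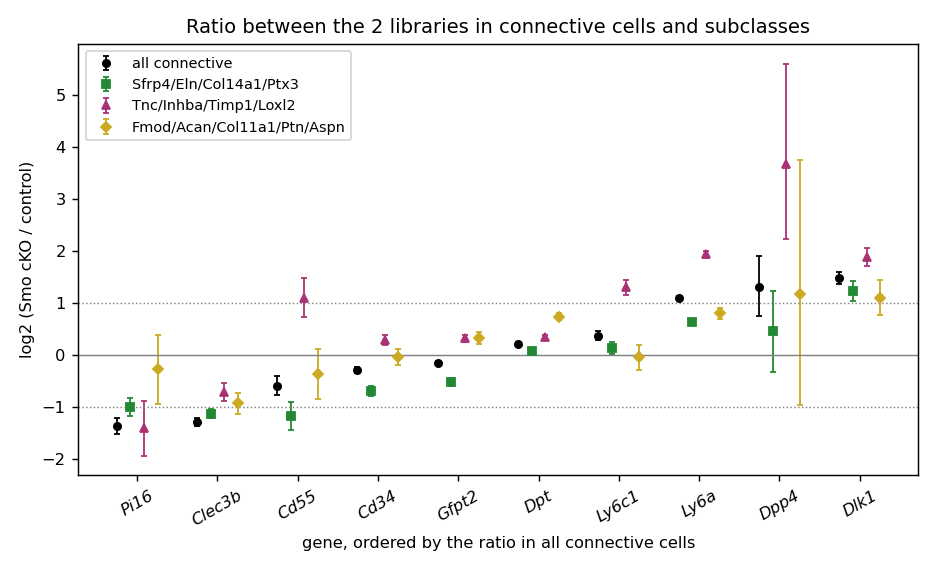
Log2 ratio of *Smo* cKO over control CPM for the 10 genes in all connective cells and in 3 subclasses, with exact 95% intervals that cover counting error only. Dotted lines mark 2-fold. *Clec3b* lies below 0 and *Ly6a* and *Dlk1* lie above 0 in all 4 sets of cells, and *Cd55*, *Cd34* and *Gfpt2* lie on opposite sides of 0 in the *Sfrp4* and *Tnc* subclasses.

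The libraries also differed in how connective cells fell among the subclasses, so the ratios were recomputed with the same subclass weights in both. The log2 ratio of *Pi16* was then −0.82 (17.2 and 9.75 CPM) and that of *Clec3b* −0.89 (72.4 and 39.1 CPM), both under 2-fold. Those of *Dlk1* (1.39) and *Ly6a* (1.06) stayed above 2-fold. The weights were shares of cells and included the cells outside all 3 subclasses, 3.83% of control and 2.17% of *Smo* cKO connective cells. In *Smo* cKO these were 111 cells with 102965 UMIs in all. They held 0.881% of the *Pi16* and 1.01% of the *Clec3b* connective UMIs, so their CPM rests on few counts. The weighted *Pi16* and *Clec3b* ratios depend on that CPM and were not recomputed without these cells. This weighting was chosen after the values were seen.

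A small set of *Smo* cKO connective cells carried a large part of several members. Cells with 2 or more UMIs of *Serpinb2*, a protease inhibitor of the plasminogen system, numbered 90 in control (1.41% of connective cells) and 132 in *Smo* cKO (2.58%). In the *Smo* cKO library these cells held 59.6% of the connective UMIs of *Dpp4*, 33.6% of *Ly6c1*, 28.5% of *Dlk1*, 23.3% of *Cd55*, 19.1% of *Ly6a* and 14.9% of *Clec3b*, but 3.08% of *Pi16*. In the control they held at most 3.69% of any member (plot of the UMIs held by *Serpinb2* cells). Over all genes they had 1276035 of 81956657 connective UMIs in control and 2509311 of 77532144 in *Smo* cKO. The gate was chosen with earlier results of these data known, so these shares are a description only.

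**Figure D4:**
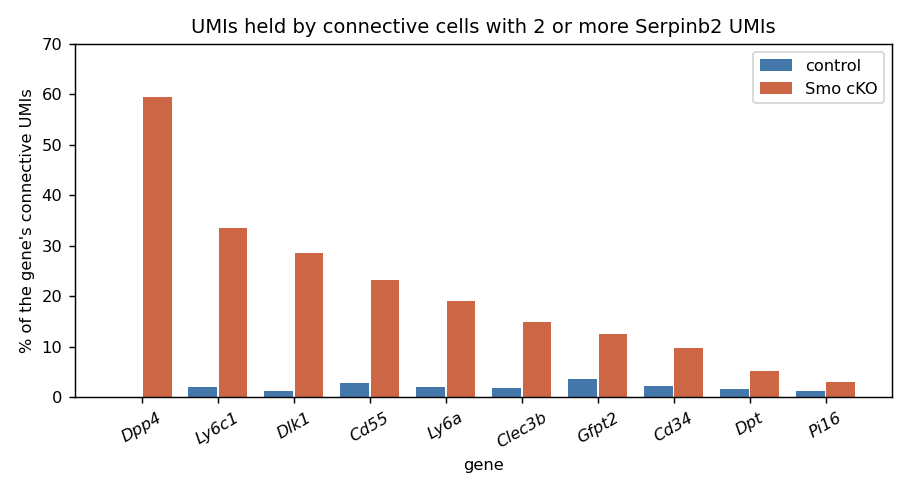
Percent of each gene's UMIs in connective cells that lay in cells with 2 or more *Serpinb2* UMIs, 90 of 6398 control and 132 of 5115 *Smo* cKO connective cells. In the *Smo* cKO library the bars reach from 3.08% for *Pi16* to 59.6% for *Dpp4*, and in the control none is above 3.69%.

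Inside the *Serpinb2* cells of the *Smo* cKO library *Ly6a* was at 1279 CPM against 181.5 CPM in the other connective cells, *Ly6c1* at 357 against 23.6 CPM, *Dlk1* at 252 against 21.1 CPM, *Cd55* at 38.7 against 4.27 CPM and *Dpp4* at 21.1 against 0.480 CPM. *Pi16* did not share this pattern (5.58 against 5.87 CPM). In the control library the same gate was at 132 against 102 CPM for *Ly6a*, 34.5 against 26.6 CPM for *Ly6c1* and 14.9 against 8.01 CPM for *Cd55*. *Dlk1* (7.84 against 10.3 CPM) and *Pi16* (12.5 against 15.2 CPM) were lower inside the control gate, which had no *Dpp4* UMI. *Gfpt2* was higher inside in both libraries, at 282 against 116.5 CPM in control and 412 against 96.3 CPM in *Smo* cKO cells. So was *Cd34*, at 86.2 against 60.1 CPM and 149 against 46.0 CPM. The gated cells also differed in *Serpinb2* itself, at 363 CPM in control and 772 CPM in *Smo* cKO cells. *Isg15* was little higher inside than outside the gate in either library, at 13.3 against 12.7 CPM in control and 177 against 157 CPM in *Smo* cKO cells. Of the 132 *Smo* cKO cells 65.2% were in the *Tnc* and 32.6% in the *Sfrp4* subclass, and 53.8% had 3 or more of 8 cell cycle genes, against 50.0%, 46.7% and 27.8% of the 90 control cells. Among all connective cells these shares were 44.6%, 24.5% and 34.0% in *Smo* cKO and 38.45%, 35.9% and 25.8% in control. Cell cycle genes were counted without thinning, and the *Serpinb2* cells had medians of 16917 UMIs in *Smo* cKO and 12601.5 in control.

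Leaving out the gated cells kept the 77 control and 133 *Smo* cKO connective cells with 1 *Serpinb2* UMI. Without the gated cells in both libraries *Ly6c1* was lower in the *Smo* cKO library (log2 ratio −0.17) and *Dpp4* was even (0.03). *Dlk1* (1.04), *Ly6a* (0.84) and *Cd55* (−0.91) kept their direction, and only *Pi16*, *Clec3b* and *Dlk1* remained at least 2-fold apart. Barcodes found in both libraries were 5 of the 90 and 11 of the 132. Leaving out every shared barcode among all connective cells left the 4 calls in place.

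Co-detection was read in connective cells thinned to 5000 UMIs, 5551 control and 4466 *Smo* cKO cells, to hold depth even between cells. Of the 45 gene pairs, the odds ratio was above 1 in 44 control and 45 *Smo* cKO pairs, and its interval lay above 1 in 41 and 43, with medians of 3.18 and 2.70. Over all 26575695 pairs of the 7291 genes, the odds ratio was above 1 in 53.8% of control and 52.2% of *Smo* cKO pairs, and the interval lay above 1 in 8.95% and 5.93%. The member pairs with *Cd55* or *Dpp4* are not among these, since neither gene reached 10 CPM. *Pi16* was most tied to *Cd55* (odds ratio 7.29 and 6.36), *Clec3b* (6.49 and 8.68) and *Ly6c1* (6.12 and 4.64), aside from *Dpp4*. Of the control cells with *Pi16*, 219 of 350 also had *Clec3b*, and of the *Smo* cKO cells 49 of 109. The odds ratios are a description across cells of 1 library each and were not compared by a test.

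*Pi16* and *Dpp4*, the pair that defines the adventitial state elsewhere, were found together in 8 control cells (0.144%) and 2 *Smo* cKO cells (0.0448%). Of the control cells with *Dpp4* 8 of 16 had *Pi16* (odds ratio 15.2, interval 5.82 to 39.5). Among *Smo* cKO cells with *Dpp4* it was 2 of 27 (odds ratio 3.95, 1.06 to 14.7). These few cells depended on which UMIs were drawn. Over 5 draws the count was 6 to 9 in control and 2 to 3 in *Smo* cKO cells, with odds ratios of 9.05 to 15.2 and 3.95 to 9.37, so that the 2 ranges overlap. Unthinned, 16 of 36 control and 6 of 67 *Smo* cKO cells with *Dpp4* had *Pi16*, and at 10000 UMIs per cell no cell of either library had both.

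**Figure D5:**
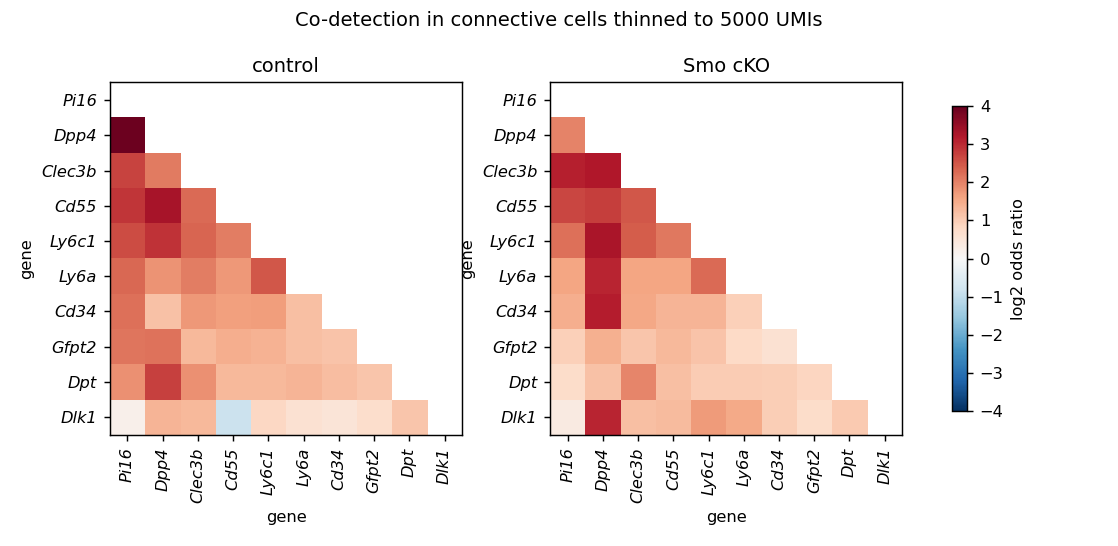
Log2 odds ratio of detecting 2 genes in the same connective cell after thinning to 5000 UMIs, in 5551 control and 4466 *Smo* cKO cells. Red pairs occur together more often than by their separate shares, and only *Cd55* with *Dlk1* in the control is blue, while the bottom row (*Dlk1*) is the palest in the control.

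In control cells *Dlk1* had the lowest median odds ratio over its 9 pairs, 1.61, against 2.35 to 4.89 for the other genes. In *Smo* cKO cells its median was 2.28, above those of *Gfpt2* (1.94) and *Dpt* (2.02). In control cells the odds ratio of *Dlk1* was 1.15 with *Pi16* and 0.549 with *Cd55* (5 cells with both), both with intervals that hold 1, and 2.47 with *Clec3b*. In the *Smo* cKO library it was still 1.27 with *Pi16* but 2.41 with *Cd55*, 3.23 with *Ly6c1* and 8.27 with *Dpp4*, where 10 of 27 *Dpp4* cells had *Dlk1*. With the cells of 2 or more *Serpinb2* UMIs left out, *Dlk1* and *Ly6c1* had odds ratios of 1.81 in control and 2.13 in *Smo* cKO cells. In the *Smo* cKO library *Dlk1* was then at 1.73 with *Cd55* (interval 0.905 to 3.32). With *Dpp4* it stayed at 8.10 (interval 2.87 to 22.9), from 5 of 15 *Dpp4* cells.

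Most pairs were also found together more often than their separate shares give within single subclasses. The share over all gene pairs was not computed within subclasses, so the counts below have no background beside them. Inside the *Sfrp4* subclass the odds ratio was above 1 in 42 control and 44 *Smo* cKO pairs, with medians of 2.01 and 2.45. *Cd55* and *Dlk1* had an interval below 1 in the control (0.315, interval 0.107 to 0.926). Inside the *Tnc* subclass 8 control and 2 *Smo* cKO pairs were never seen together, with 1 control cell holding *Dpp4*. Of the other 37 and 43 pairs 36 and 40 had an odds ratio above 1, with medians of 1.73 and 2.62. These pairs were kept because they were seen together, which by itself favors odds ratios above 1. Of the 2 *Smo* cKO pairs left out, *Pi16* with *Dlk1* was at 0.354 and *Pi16* with *Dpp4* at 5.43, both with intervals that hold 1.

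At least 4 of the 10 genes were detected in 18.2% and 12.7% of connective cells (intervals 17.2% to 19.2% and 11.8% to 13.7%) at 5000 UMIs, against 0 of 324 control hematopoietic cells, which by the exact interval allows 1.13%, and 2 of 441 *Smo* cKO hematopoietic cells. Connective cells were not the class with the highest share. It was higher in cells with epithelial genes, at 4 of 10 control and 11 of 28 *Smo* cKO cells. In endothelial cells the share was lower than in connective cells, at 5 of 50 (10.0%) and 4 of 56 (7.14%). In the *Sfrp4* subclass the share was 41.7% and 25.3%, and in the *Tnc* subclass 5.77% and 11.1%. In the *Serpinb2* cells it was 33.7% of 86 control and 68.5% of 130 *Smo* cKO cells.

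Genes with a pattern like that of the *Pi16* and *Dpp4* pair could not be ranked from 8 and 2 cells. Cells chosen by *Pi16* alone (350 and 109 cells, a choice made after the values were seen) were used instead. Genes were ordered by the lower of the 2 libraries' log2 ratios against the other connective cells. Only the 4263 genes at 20 CPM or more in the *Pi16* cells of both libraries were ranked. Entry thus depended on the level in the *Pi16* cells themselves, and the order is a description only. *Smo* cKO UMIs were few, such as 21 for *Scara5*, 26 for *Ntrk2* and 18 for *Cd55*. *Scara5*, a ferritin receptor, led with 66.3 against 6.15 CPM in control (log2 3.43) and 38.5 against 2.16 CPM in *Smo* cKO cells (4.16). *Ntrk2* (lower log2 ratio 2.73), the matrix gene *Tnxb* (2.32), *Col4a5* (2.30), *Lbp* (2.13), *Entpd2* (2.10), *Itih5* (1.99), complement *C3* (1.95), *Eln* (1.94) and *Lrrn4cl* (1.85) followed. *Eln* is also a gene that defines the *Sfrp4* subclass. Of the members, counted apart, *Cd55* (2.56), *Clec3b* (2.42) and *Ly6c1* (2.35) stood near the top, whereas *Ly6a* was 20th (1.78), *Cd34* 33rd (1.52), *Gfpt2* 182nd (0.78) and *Dpt* 237th (0.68). *Dlk1* and *Dpp4* did not pass the 20 CPM limit and were not ranked.

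Other genes of the adventitial program were read from a list of 20 that holds no member. In connective cells 13 reached 10 CPM, with a median log2 ratio of 0.08, and none was 2-fold apart, beside 0.261% lower and 0.919% higher of all genes. Its most abundant genes were the microfibril genes *Mfap5* (683 and 956 CPM, log2 ratio 0.48) and *Fbn1* (466 and 411 CPM, −0.18), *Ugdh*, an enzyme of hyaluronan precursor synthesis (225 and 212 CPM, −0.08), and *Igfbp6* (207 and 220 CPM, 0.09). Of 12 parenchymal fibroblast genes 9 reached 10 CPM and none of these was 2-fold apart (median −0.14). *Mgp*, an inhibitor of calcification, was at 689 and 1120.0 CPM (log2 ratio 0.70), *Gsn* at 153 and 138 CPM (−0.14), *Smoc2* at 93.9 and 105 CPM (0.16) and *Col15a1* at 78.4 and 81.2 CPM (0.05). *Inmt* was 2-fold apart but nearly absent, at 0.159 and 0.0387 CPM.

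Summed by list, markers of other cell types were also higher in *Smo* cKO connective cells, though not gene by gene. Their part in the members' ratios was tested only by leaving cells out. The 8 muscle genes summed to 74.9 and 135 CPM, the 8 mural genes to 95.2 and 158 CPM, the 8 endothelial genes to 13.6 and 20.04 CPM, the 40 hematopoietic genes to 350 and 379 CPM (109.5 and 129.8 CPM without *Ebf1*, which was detected in 77.9% and 80.3% of connective cells) and the 8 epithelial genes to 1.53 and 4.99 CPM. Of those at 10 CPM or more, the muscle regulator *Myog* (19.8 and 46.9 CPM) and the mural gene *Ndufa4l2* (39.5 and 98.1 CPM) were more than 2-fold higher. *Ndufa4l2* thus carried most of the rise in the mural sum. The mural genes *Cspg4* (20.3 and 15.5 CPM) and *Abcc9* (10.2 and 9.52 CPM) and the macrophage gene *Csf1r* (10.2 and 7.88 CPM) were lower. Higher by less than 2-fold were *Rgs5*, *Des*, *Chrna1*, *C1qa*, *S100a8* and *Ebf1*. At 0 were 2 of the hematopoietic and 1 of the epithelial genes in control and 1 of each in *Smo* cKO cells. Connective cells with 2 or more genes of the endothelial, mural, muscle, macrophage or monocyte, neutrophil, T or NK, or B list were then left out. In the 4862 of 6398 control and 3175 of 5115 *Smo* cKO cells that remained the same 4 calls stood, 2 lower and 2 higher. Their log2 ratios were −1.07 (*Pi16*), −1.11 (*Clec3b*), 1.19 (*Ly6a*) and 1.44 (*Dlk1*), against −1.37, −1.30, 1.09 and 1.48 in all connective cells. Genes were counted for this filter without thinning, and *Ebf1* is on its B list. It may thus also pick cells by depth, which was not tested. The epithelial and dendritic lists were not part of this filter, so cells with those genes stayed in.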

How the data were processed

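The authors aligned the reads of 1 control and 1 *Smo* cKO library to mm10 with Cell Ranger 3.0.2, per the submitters' processing notes, and deposited raw UMI counts per gene and barcode, without normalization. Here UMIs were summed over the cells of a class and divided by their total (CPM). Cells with *Ptprc* and 1% collagen (239 and 205) were kept apart as mixed. No doublet caller was run, and alternatives left out the 5% of connective cells with most UMIs or cells with other lineages' markers. Cells without collagen were hematopoietic with *Ptprc*, or endothelial, mural, muscle or epithelial by the marker list with most detected genes (at least 2). Subclasses took the highest of 3 scores with at least 3 UMIs. Cells were thinned by drawing UMIs without replacement, which at 5000 UMIs left out 847 and 649 connective cells. The draw was remade once after first values had been seen, so that each cell keeps the same draw in every subset, and it moved the few cells with both *Pi16* and *Dpp4*. Intervals are 95% exact Poisson (CPM), Clopper-Pearson (shares), exact conditional (ratios) and Wald with 0.5 added to each cell of the 2 by 2 table (odds ratios). Cell numbers do not replace replicates, so no p-value was computed. Genes were named as the 10 members, *Ly6c2*, *Smo*, tdTomato and *Cxcl12*, the 4 most abundant genes of the adventitial and parenchymal lists and genes of any list at least 2-fold apart at 10 CPM or more (and *Inmt*), and the 10 genes most like *Pi16*. *Isg15*, the gate genes and the cell class markers are named beside the results they touch. The members, lists, subclasses and the *Serpinb2* gate were chosen with earlier results of these data known. The fold rule, intervals, thinning and odds ratios were tested on simulated data. Promoters came from RefSeq (GRCm38.p6), with an entry for 8 of the 10 members, and transcripts from GENCODE vM21. Python 3.11.15, numpy 2.4.6, scipy 1.17.1, pandas 2.3.3, Biopython 1.88 and matplotlib 3.10.9 were used.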

Additional observations from a re-analysis of the deposited data

Results flagged for a closer look

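*Cd34*, *Cd55* and *Gfpt2* had opposite directions in different connective subclasses. The log2 ratio of *Cd34* was −0.70 in the *Sfrp4* and 0.28 in the *Tnc* subclass. That of *Cd55* was −1.18 in the *Sfrp4* and 1.09 in the *Tnc* subclass. That of *Gfpt2* was −0.52 in the *Sfrp4*, 0.32 in the *Tnc* and 0.32 in the *Fmod* subclass. All these intervals exclude 0 for counting error, but with 1 library per genotype the differences between subclasses were not tested. In the *Smo* cKO library *Serpinb2* cells, 65.2% of them in the *Tnc* subclass, held 23.3% of the *Cd55*, 12.5% of the *Gfpt2* and 9.75% of the *Cd34* connective UMIs, and their part in the *Tnc* ratios was not tested.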

How the results depend on the processing

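The median log2 ratio of the members, 0.03, was −0.40 with at most 2000 genes per cell, −0.13 with each cell weighted equally and −0.22 without *Serpinb2* cells, the last chosen after seeing the data. The 4 members at least 2-fold apart became 0 with at most 2000 genes, 2 with cells weighted equally, 2 among genes at 50 CPM or more, and 3 with collagen at 2% or more, where *Ly6a* was at 0.88. *Ly6c1* turned to −0.30 and *Dpt* to −0.012 with at most 2000 genes, and *Ly6c1* to −0.17 without *Serpinb2* cells. Over all genes, 19 lower and 67 higher became 73 and 265 with at most 2000 genes, 4 and 19 at 50 CPM or more, and 99 and 169 at 1.5-fold. The *Pi16* and *Dpp4* share in the control, 0.144%, was 0.0335% at 2000 UMIs per cell and 0.0% at 10000. At 10000 UMIs the odds ratio was 1.43 in control and 0.641 in *Smo* cKO cells, whose share was also 0.0%. No cell held both genes there, so these odds ratios are set by the 0.5 added to each count and say nothing of co-detection. Of 4 other random draws, 3 were added after seeing the data. *Pi16*, *Clec3b*, *Cd55*, *Cd34* and *Gfpt2* stayed lower, and *Dlk1* and *Ly6a* higher, under all 11 alternatives for each gene. These did not include cells with over 2000 genes alone, in which *Gfpt2* was even (104.2 and 104.3 CPM). *Dpp4* was at 0.03 without *Serpinb2* cells and at 0.10 (interval −1.80 to 1.78) with at most 2000 genes. The cause of these shifts was not tested. Counting error, 1 library per genotype and, for *Dpp4*, under 100 UMIs per library limit every value.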
